A study of Mus musculus with 2 samples.

Results

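The genes described here form 3 routes by which neighbouring cells restrain microglia, namely CD47 with its receptor SIRPα, CD200 with its receptor CD200R1, and the chemokine fractalkine with its receptor CX3CR1, together with the phosphatases that carry inhibitory signals inside the microglial cell. They were chosen by gene symbol and are 10 of the 18193 genes named on the array, with 27 probe sets, of which 26 name a single gene. The tissue was white matter, the optic nerve with the optic tract, and came from male CD47 KO mice (labelled CD47 null, 12 to 15 weeks of age) and from male WT mice (13 to 15 weeks). Each genotype gave 1 array of RNA pooled before labelling: the series text and the methods give 4 CD47 KO and 5 WT mice, whereas the labelling protocol gives 5 CD47 KO and 4 WT mice. Cd47 is disrupted in all cells of the CD47 KO animals (Cd47-/-), the strain background of these mice was not found in the sources used here, and the tissue was not sorted into cell types. Fewer cells of a type and less RNA per cell cannot be told apart in such samples.

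CD47 is a membrane protein of most cells, and its binding to SIRPα on macrophages and microglia is known as a "don't eat me" signal. The cytoplasmic tail of SIRPα carries tyrosine motifs (ITIMs) that, when phosphorylated, recruit the tyrosine phosphatases SHP-1 (Ptpn6) and SHP-2 (Ptpn11). CD200, a membrane protein of neurons among other cells, acts through CD200R1 on myeloid cells, which uses the adaptor Dok2 in place of ITIMs. Fractalkine (Cx3cl1) is a membrane-bound chemokine of neurons that can be shed, and CX3CR1 is the G protein-coupled receptor by which microglia sense it. SHIP-1 (Inpp5d) removes a phosphate from the lipid PIP3 and thereby dampens signals of activating receptors in blood and microglial cells.

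Values are MAS5 signals, a linear measure of brightness that the authors scaled to the same trimmed mean on both arrays, and differences are given as log2 of CD47 KO over WT. Signals under a floor of 106.4, the median of all signals of both arrays, were set to the floor, and a ratio with 1 pool under it is a bound. Of the 26 probe sets, 15 were above the floor in both pools, 2 in 1 pool and 9 in neither. With 1 array for each genotype there was no spread between samples and no test; a difference over 2-fold was counted as called. A repeat measure came only from genes with several probe sets above the floor in both pools: in 95% of 11653 such pairs the log2 ratios lay within 0.74 of each other. Both probe sets of a pair were read on the same 2 arrays, so this range holds no variation between mice, pools or arrays. It describes differences between 2 ratios and not the spread of a single one. Of 23846 probe sets above the floor in at least 1 pool, 1.06% were over 2-fold higher in CD47 KO and 0.751% over 2-fold lower. Among the 17 probe sets of the restraint genes above the floor, 2 were over 2-fold higher, 1 each of Cx3cr1 and Ptpn6, and 3 were over 2-fold lower, all of them of Cd47. At a fold of 1.5, passed by 4.45% of all probe sets in the higher and 4.55% in the lower direction, 1 probe set of Sirpa joined them, for 3 higher and 3 lower.

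**Figure D1:**
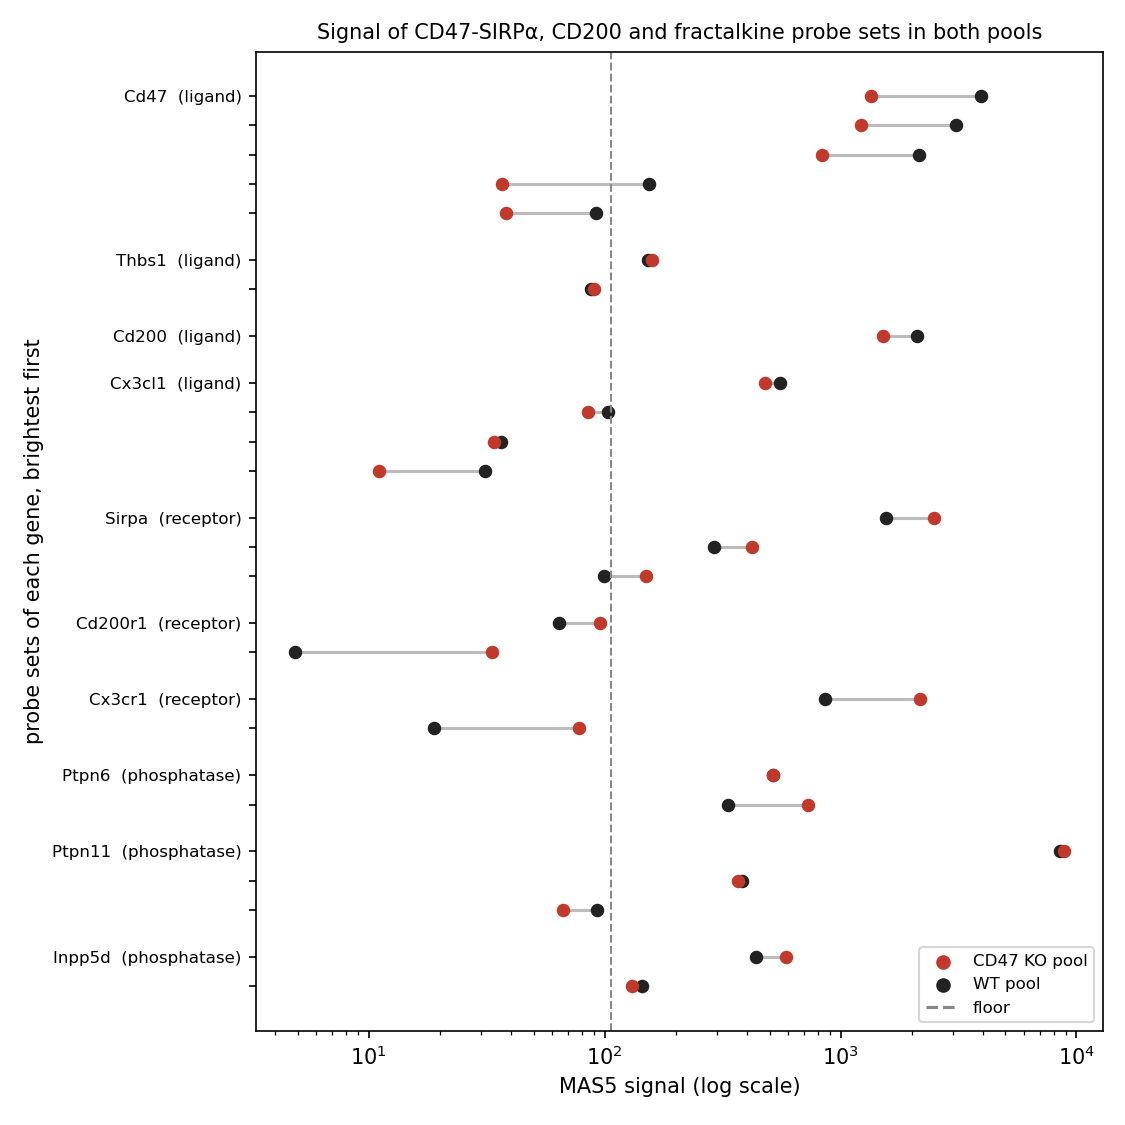
MAS5 signal (horizontal, log scale) of the 26 probe sets of the 10 genes, brightest first within each gene, with 1 red point for the CD47 KO pool and 1 black point for the WT pool; the dashed line is the floor of 106.4. The red points of Cd47 lie left of the black points in all 5 of its probe sets, and those of Sirpa, Cx3cr1 and Cd200r1 lie right of them. However, the dimmest probe sets of Cd47 and Cx3cr1 and both of Cd200r1 are under the floor in both pools. The next dimmest of Cd47 and the dimmest of Sirpa are above it in a single pool.

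Among the ligands only Cd47, the gene disrupted in these mice, was over 1.5-fold lower in CD47 KO white matter. The brightest probe set of Cd47 gave a signal of 1346 in the CD47 KO pool, against 3928 in the WT pool (log2 ratio -1.54). The next gave 1225 in CD47 KO and 3099.5 in WT (log2 ratio -1.34), and a further one gave 838 in CD47 KO and 2156 in WT (log2 ratio -1.36). These 3 probe sets thus kept 34.3% to 39.5% of the WT signal, and their log2 ratios spanned 0.21. Another probe set had 36.7 in CD47 KO, under the floor, and 153.6 in WT, and the last was under the floor in both pools with 38.4 in CD47 KO and 92.4 in WT. Of the 12473 genes above the floor in at least 1 pool, 7 had a lower ratio than Cd47, and 0.818% were over 2-fold lower. Where these probe sets lie relative to the disrupted sequence was not examined, so a signal above the floor in CD47 KO checks neither the allele nor the protein. The paper reports by flow cytometry that microglia from the spinal cord of CD47 KO mice lacked CD47 protein and carried more SIRPα.

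Cd200 had a signal of 1511 in the CD47 KO pool and 2111 in the WT pool by its only probe set (log2 ratio -0.48). It was not over 1.5-fold lower, and 7.70% of all genes had a lower ratio. Its ratio was less than 0.74 in size, which describes differences between probe sets of a gene and not the spread of a single ratio. Cx3cl1, the fractalkine gene, gave 479 in CD47 KO and 554 in WT by its brightest probe set (log2 ratio -0.21), with its 3 other probe sets under the floor in both pools. This ratio was also less than 0.74 in size, and 23.3% of all genes had a lower ratio. Thbs1, whose product thrombospondin-1 is a secreted protein that also binds CD47, gave 158 in CD47 KO and 152 in WT (log2 ratio 0.06). A second probe set of Thbs1 was under the floor in both pools, and another, with 701 in CD47 KO and 899 in WT, is annotated to Pald1 as well and was not counted for either gene. Of the 4 ligands, 3 had a log2 ratio below 0, as did 53.2% of all genes measured, and their median was -0.35, against -0.02 over all genes. Both the count and the median include Cd47, the gene disrupted in these mice. The remaining ligands were Cd200 at -0.48, Cx3cl1 at -0.21 and Thbs1 at 0.06, with Cx3cl1 in the middle.

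Neuronal markers stand beside the values of Cd200 and Cx3cl1. All 10 examined were below 0 and 2 were over 2-fold lower, against 0.818% of all genes, with a median log2 ratio of -0.71, values from -1.32 for the neurofilament gene Nefm to -0.23 for Nefh, and a summed signal of 8985 in CD47 KO and 15150 in WT. The brightest, Snap25, a gene of synaptic vesicle release, gave 2843 in CD47 KO and 5610 in WT (log2 ratio -0.98). Of these 10 genes, 7 had a lower ratio than Cd200 and 10 a lower ratio than Cx3cl1, whereas Cd47 lay below all of them. The part of these neuronal transcripts in the ligand values was not tested.

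Among the receptors Cx3cr1 was over 2-fold and Sirpa over 1.5-fold higher in CD47 KO white matter, and Cd200r1 could not be measured. Sirpa gave a signal of 2487 in the CD47 KO pool and 1553 in the WT pool by its brightest probe set (log2 ratio 0.68, 1.60-fold higher). Its second probe set gave 423 in CD47 KO and 292 in WT (log2 ratio 0.53), and its dimmest gave 149.6 in CD47 KO and 99.9, under the floor, in WT, for a bound of at least 1.41-fold. The log2 ratios of the 2 brighter probe sets were, like those of Cd200 and Cx3cl1, less than 0.74 in size. The dimmest passed the floor only through the CD47 KO pool, which fixed its direction, so that the value of Sirpa rests on the other 2 probe sets, both short of 2-fold; 374 of 12473 genes had a higher ratio than its brightest. Cx3cr1 gave 2180 in CD47 KO and 856 in WT (log2 ratio 1.35, 2.55-fold higher), and 64 of 12473 genes, or 0.513%, had a higher ratio. Its other probe set was under the floor in both pools, with 77.7 in CD47 KO and 18.9 in WT, so that the value of Cx3cr1 rests on 1 probe set. The paper also reports Cx3cr1 as increased in this same white matter, so that its value repeats a known result of these data. Of all 12473 genes 1.21% were over 2-fold higher. By their brightest probe sets 2 of the 9 genes measured, Cx3cr1 and Sirpa, were over 1.5-fold higher, against 4.02% of all genes measured, and 1, Cd47, over 1.5-fold lower, against 4.68%.

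Cd200r1 was too dim to compare. Its probe sets gave 95.7 and 33.3 in the CD47 KO pool, against 64.1 and 4.86 in the WT pool, all under the floor. At a lower floor, the 40th percentile of all signals (67.6), the brighter of them became a bound of at least 1.42-fold higher in CD47 KO.

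General markers of microglia stand beside these receptor values. Of 10 general microglial markers 7 were above 0 and 3 below, and none was over 2-fold higher or lower. Their log2 ratios ran from -0.52 for Tmem119 to 0.96 for Aif1, which encodes Iba1, with a median of 0.43; Csf1r, the receptor of the microglial growth factors, had 0.46. Their summed signal was 32395 in CD47 KO and 24528 in WT. Cx3cr1 lay above all 10 markers, 0.91 above their median on the log2 scale. Sirpa lay above 8 of them and 0.25 above their median, which is within the range in which probe sets of the same gene differ. The part of the microglial markers' shift in either value was not tested. The paper also places SIRPα on neurons, whose markers were lower here (median log2 ratio -0.71), and their part in the Sirpa value was not tested either.

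The measured receptors were set against their ligands. The log2 ratio of Sirpa exceeded that of Cd47 by 2.22, most of which lies in the low ratio of Cd47, the gene disrupted in these mice. The part of the disruption in that low ratio was not tested. The log2 ratio of Cx3cr1 exceeded that of Cx3cl1 by 1.56, and most of this lies in Cx3cr1, since Cx3cl1 was near 0. The medians were -0.35 for the 4 ligands, the disrupted Cd47 among them, 1.01 for the 2 measured receptors and 0.05 for the 3 phosphatases.

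**Figure D2:**
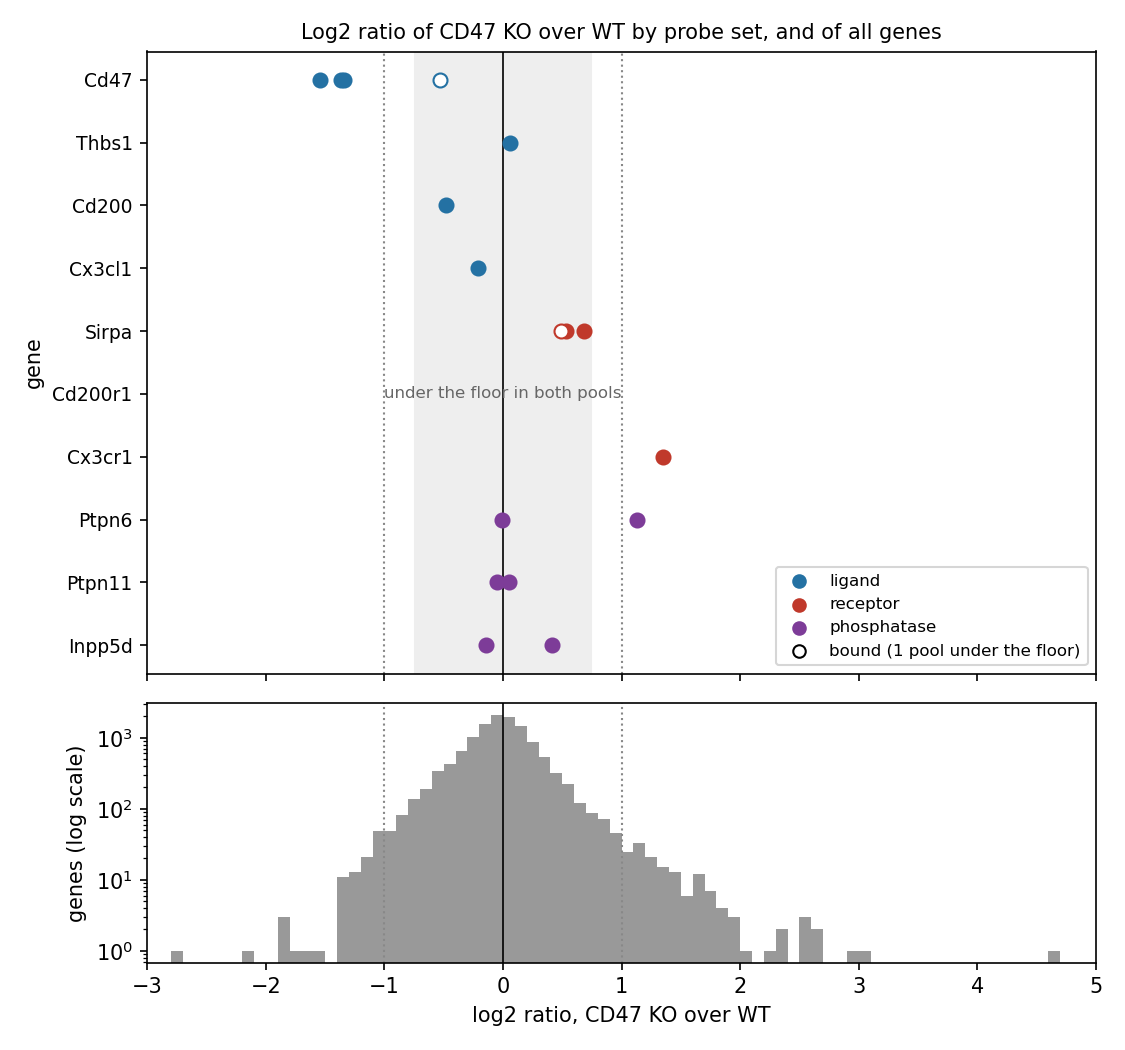
CD47 KO over WT as a log2 ratio (horizontal axis), plotted for the probe sets above the floor in at least 1 pool, by gene and coloured by role (top), and for all 12473 genes measured (bottom, number of genes on a log scale). Open circles are bounds and dotted lines mark 2-fold. The grey band (top) reaches 0.74 on either side of 0, the range of 95% of differences between probe sets of 1 gene on the same arrays. It is not the spread of a single ratio and holds no variation between mice or arrays. To the left of -1 lie 3 probe sets of Cd47, and to the right of 1 lie 1 each of Cx3cr1 and Ptpn6.

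The phosphatases showed no common direction, and for one of them the answer depended on the probe set. Ptpn11, which encodes SHP-2, gave 8857 in the CD47 KO pool and 8552 in the WT pool (log2 ratio 0.05), and its second probe set gave 369 in CD47 KO and 381 in WT (log2 ratio -0.05). Both values were close to 0. Ptpn6, which encodes SHP-1, the phosphatase more restricted to blood and microglial cells, gave 728 in CD47 KO and 334 in WT by the probe set annotated to a RefSeq mRNA (log2 ratio 1.13, 2.18-fold higher). Its other probe set, marked _x_at for possible cross-hybridisation, gave 516 in CD47 KO and 519 in WT (log2 ratio -0.01). The second stands for the gene in the values by gene, since its mean log2 signal over both arrays is the higher, whereas by the mean of the linear signals the first is the brighter. The log2 ratios of the 2 probe sets differed by 1.13, more than 95% of pairs of the same gene, and 1.60% of pairs differed by over 2-fold. The files do not say which of them follows the Ptpn6 transcript, which therefore has no settled value here. Inpp5d, which encodes SHIP-1, gave 585 in CD47 KO and 440 in WT by its brighter probe set (log2 ratio 0.41), close to the microglial median, and 130 in CD47 KO and 144 in WT by the other (log2 ratio -0.14). The difference of 0.55 between them was within the range of repeat probe sets.

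Promoter sequence was examined for the genes that differ in direction, as the regulatory stretch nearest to the transcripts measured. RefSeq promoters of assembly GRCm38.p6, 250 bases before to 50 after a transcription start, were matched for 7 of the 10 genes. Those of Sirpa, Cd200r1 and Thbs1 were not available, so that Cx3cr1 is the only receptor searched. They were searched on both strands for GAGGAA, the core of the PU box bound by the myeloid transcription factor PU.1, which 28.3% of 32851 mouse promoters of that length hold. The core was present in 4 of the 7, namely those of Inpp5d, Ptpn11, Cd200 and Cx3cl1, and absent from those of Cx3cr1, Ptpn6 and Cd47. The longer PU.1 site GAGGAAGT, held by 3.2% of promoters, was present only in that of Inpp5d among the 7, overlapping 1 of its 2 matches of the core. Printed here are the 300 bases of Cx3cr1, the gene with the highest ratio, of Inpp5d, which held both forms, and of the targeted gene Cd47; capitals mark the core GAGGAA or its reverse complement TTCCTC.
Cx3cr1 (chr9:120068247-120068546, minus strand): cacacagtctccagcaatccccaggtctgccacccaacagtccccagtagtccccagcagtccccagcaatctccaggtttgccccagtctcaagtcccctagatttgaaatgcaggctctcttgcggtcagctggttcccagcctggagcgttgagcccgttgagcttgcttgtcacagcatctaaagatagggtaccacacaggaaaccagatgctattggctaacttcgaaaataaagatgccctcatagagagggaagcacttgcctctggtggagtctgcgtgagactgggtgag
Inpp5d (chr1:87620062-87620361, plus strand): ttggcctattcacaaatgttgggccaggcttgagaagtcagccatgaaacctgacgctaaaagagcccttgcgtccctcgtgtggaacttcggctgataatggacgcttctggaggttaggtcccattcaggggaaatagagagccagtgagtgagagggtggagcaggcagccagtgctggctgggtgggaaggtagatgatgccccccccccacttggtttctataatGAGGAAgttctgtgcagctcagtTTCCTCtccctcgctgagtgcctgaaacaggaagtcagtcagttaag
Cd47 (chr16:49855404-49855703, plus strand): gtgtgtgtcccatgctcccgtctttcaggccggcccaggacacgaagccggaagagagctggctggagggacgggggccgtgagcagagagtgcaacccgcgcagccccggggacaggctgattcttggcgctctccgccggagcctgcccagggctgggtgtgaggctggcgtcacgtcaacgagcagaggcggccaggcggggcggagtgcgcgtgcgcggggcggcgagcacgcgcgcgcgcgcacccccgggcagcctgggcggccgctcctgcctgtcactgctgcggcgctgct
The promoter of Cd47 held 35 CpG dinucleotides, more than 93% of all promoters, whereas that of Cx3cr1 held 5, more than 38% of them, and that of Inpp5d held 6. A match of letters is no measure of binding, and its absence in this window says nothing of the factor.

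Cd47, Cd200 and Cd200r1 lie on the same chromosome, 16, with 26 annotated protein-coding genes between Cd47 and Cd200 and 34 between Cd47 and Cd200r1.

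Further genes of the same routes were counted from lists. Among partners of CD47 and SIRPα, 11 of 15 genes on the array were measured, 7 above 0 and 4 below, with a median log2 ratio of 0.02 and 1 over 2-fold higher, against 1.21% of all genes. This was Fyb, an adaptor of leukocytes that associates with SIRPα signalling in macrophages, with 1046 in CD47 KO and 509 in WT (log2 ratio 1.04), and 1.26 by its second probe set. Thbs3, a further thrombospondin, had a log2 ratio of 0.66. The integrin gene Itgb3 was at least 1.53-fold higher, with 163 in CD47 KO and 104.6, under the floor, in WT. Itgb3 passed the floor only in the CD47 KO pool, which fixed its direction. Of the 10 partners above the floor in both pools, 6 were above 0 and 4 below. Thbs2, whose product also binds CD47, had log2 ratios of -0.46, -0.40 and -0.36 over its 3 probe sets, and Qpctl, which encodes the enzyme that modifies CD47 for binding to SIRPα, had -0.45, -0.48 and 0.00. The activating SIRP gene Sirpb1a was under the floor in both pools.

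The largest value among partners of CD200 was a bound, for an activating receptor. Cd200r4, a relative of Cd200r1 whose product couples to the activating adaptor DAP12, gave 337 in CD47 KO and 18.0 in WT, under the floor, and was thus at least 3.17-fold higher. The bound depends on the floor, with at least 4.98-fold at the 40th percentile and at least 1.80-fold at the 60th, and it rests on 1 probe set. Cd200r4 passed the floor only in the CD47 KO pool, which fixed its direction. Dok1, an adaptor related to Dok2, had a log2 ratio of 0.47 and Rasa1, the Ras regulator to which these adaptors bind, of 0.11. Dok2 itself, with 74.2 in CD47 KO and 71.2 in WT, and Cd200r3 were under the floor in both pools.

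Of 15 other inhibitory receptors with ITIMs on the array, 7 were above the floor in both pools, with a median log2 ratio of 0.70, and 3 of them were over 2-fold higher, against 1.21% of all genes. A further 3 (Clec4a2, Cd300lf and Pilra) passed the floor only in the CD47 KO pool, which fixed their direction. The other 5 were under the floor in both pools, 4 of them with the lower signal in CD47 KO. Cd72, known from B cells and myeloid cells, gave 482 in CD47 KO and 187 in WT (log2 ratio 1.37). The inhibitory Fc receptor gene Fcgr2b gave 3857 in CD47 KO and 1589 in WT (log2 ratio 1.28), with its 3 other probe sets above the floor between 0.33 and 1.53. Cd300a, an inhibitory receptor for phosphatidylserine, gave 302 in CD47 KO and 129 in WT (log2 ratio 1.23). Of the 3, only Cd300a stays over 2-fold when probe sets marked _x_at, _s_at or _a_at, which can match several transcripts, are left out, since Cd72 has no other probe set and Fcgr2b none above the floor without the mark. Ceacam1, an adhesion receptor, had a log2 ratio of 0.08 by its brightest probe set and of 0.17, -0.29 and -0.56 by the others above the floor.

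Further phosphatases of signalling had 12 measured genes, 9 above 0, with a median of 0.23. Only Ptprc, which encodes the leukocyte phosphatase CD45, was over 2-fold higher, against 1.21% of all genes, with 2092 in CD47 KO and 802 in WT (log2 ratio 1.38), by a probe set marked _a_at, its other one being under the floor in both pools. Ptpn18 had a log2 ratio of 0.54 and Ptpro of -0.38. On the opposite, activating side, receptors and kinases that signal through ITAMs had a median of 1.22 over 8 measured genes, with 4 over 2-fold higher, against 1.21% of all genes: Clec7a (log2 ratio 2.93), Trem2 (2.68), the adaptor Tyrobp (1.77) and the Fc receptor chain Fcer1g (1.62). The paper reports Clec7a, Trem2 and Tyrobp as higher in this same white matter, so that their count repeats a known result of these data. Pik3ap1, an adaptor for PI3 kinase, had a log2 ratio of -0.56, and the phospholipase gene Plcg2 of -0.13. The kinase gene Syk was under the floor in both pools by all 4 of its probe sets, with 102.6 in CD47 KO and 31.0 in WT for the brightest.

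**Figure D3:**
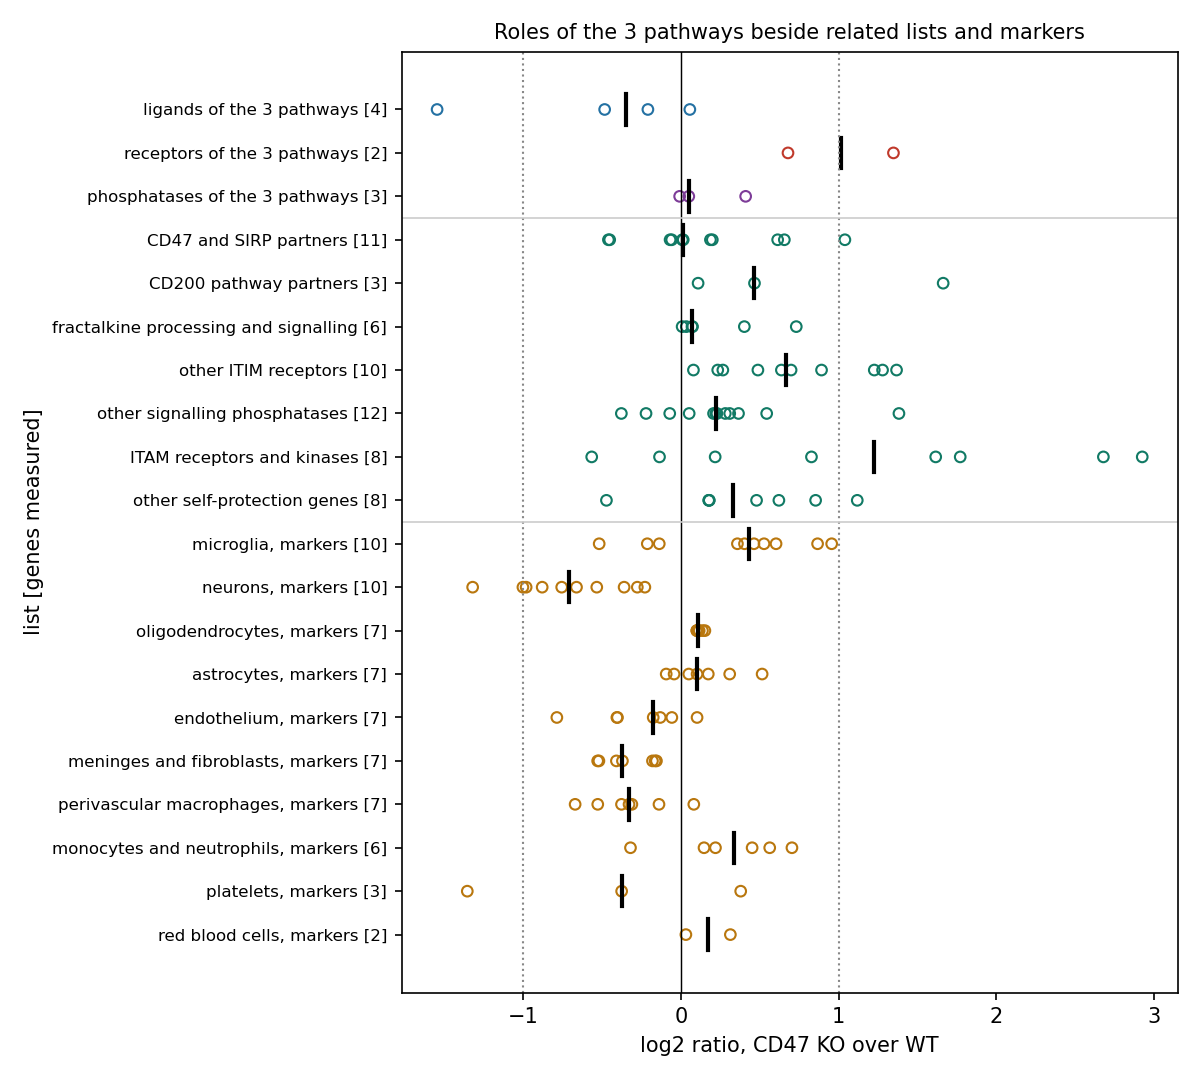
CD47 KO over WT as a log2 ratio (horizontal axis), plotted for each measured gene (circles, by its brightest probe set, bounds included) and the median (black bar) of the ligands, receptors and phosphatases, of 7 lists of related genes and of markers of 10 cell types; the number of genes is in brackets and dotted lines mark 2-fold. The 2 measured receptors (median 1.01) lie to the right with the ITAM genes (1.22) and the other ITIM receptors (0.67). The median of the 4 ligands (-0.35), which include the disrupted Cd47, lies to the left, less far than that of the neuronal markers (-0.71).

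Other cell types of the dissected tissue were read from their markers. Oligodendrocyte markers had a median log2 ratio of 0.11 over 7 genes, with Mobp, the farthest from 0, at 0.15, and astrocyte markers a median of 0.10 over 7, with Gfap at 0.52 and S100b at -0.04. Markers of endothelium (median -0.17, with Kdr at -0.79 and Slco1a4 at 0.10) and of meninges and fibroblasts (median -0.37, with Aldh1a2 at -0.53 and Dcn at -0.37) held none over 2-fold lower. Markers of perivascular macrophages had a median of -0.33 over 7 genes, with Cd163 at -0.67 and Pf4 at -0.53. Monocyte and neutrophil markers had a median of 0.34 over 6, with Ngp at 0.70 and S100a8 at 0.15. Of the 4 probe sets of Ccr2, 1 was above the floor only in CD47 KO, 1 only in WT and 2 in neither pool. Platelet markers, relevant to Thbs1, were 3 of 5 above the floor in at least 1 pool, with Itga2b at 0.38 and Ppbp at -1.35. Only Ppbp was over 2-fold lower, against 0.818% of all genes, with 112.8 in CD47 KO, near the floor, and 288.4 in WT. With the floor at the 60th percentile no platelet marker was. Treml1 passed the floor only in the WT pool, which fixed its direction. Red blood cell markers, relevant to Cd47, were 2 of 4 above the floor, with Alas2 at 0.03 and Slc4a1 at 0.31.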

How the data were processed

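The deposited values are MAS5 signal intensities per probe set on a linear scale, from Affymetrix Mouse Genome 430 2.0 arrays labelled by a 3' kit. The authors scanned them with Command Console and processed them with Expression Console, per the methods, with no version of MAS5 found. The 2% trimmed mean was 500.003 on both arrays. From 45101 probe sets, 64 controls were set aside. Platform annotation gave 1 symbol to 34945 probe sets, of which 34741 matched a gene of assembly GRCm38.p6 by identifier. A gene was represented by its brightest probe set (highest mean log2 signal of both arrays), and probe sets with several genes were left out. Precision is limited by having 1 array for each genotype.

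The genes and lists were chosen with earlier results of these data known. Named were all 10 genes with their probe sets, and from each list of related genes the 3 with the largest absolute log2 ratio and all over 2-fold. From each marker list came the brightest and the most different gene. Any other gene was chosen after its values were seen. Calculations, checked on simulated data, were run in Python 3.11.15 with pandas 2.3.3 and statsmodels 0.14.6. Alternatives were other floors, normalizations and choices of probe set.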

Additional observations from a re-analysis of the deposited data

How the results depend on the processing

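Over 8 alternatives, no value of the 10 genes called over 2-fold changed sign, and of 108 recomputed values 100 moved by less than 0.26 on the log2 scale, the SD of a single probe set, or for counts by at most 1.5 times. Many of these values could not move. A floor leaves genes well above it unchanged, and the choice of probe set leaves a gene with 1 measured probe set unchanged. The count of 100 therefore says little on its own. Across settings the log2 ratio ran from -1.55 to -1.35 for Cd47, from 0.53 to 0.72 for Sirpa and from 1.35 to 1.39 for Cx3cr1. Without a floor 4 probe sets in place of 2 were over 2-fold higher and 6 in place of 3 over 2-fold lower, since dim probe sets then entered. The median of the receptors was 0.68 at the lower floor (40th percentile) and without a floor, where Cd200r1 joined it. The median of the phosphatases was 0.59 without the _x_at, _s_at and _a_at probe sets, where Ptpn6 was 1.13; by the median over probe sets Ptpn6 was 0.56 and Inpp5d 0.13. The CD200 list had a median of 0.11 without a floor, against 0.47 with the main floor over 3 measured genes, among them the bound of Cd200r4. The ITAM list had medians of 0.83 with the floor at the 40th percentile or without the marked probe sets, and 1.62 with the floor at the 60th percentile or none. Among all genes 102 were over 2-fold lower, or 173, 55 and 1445 with the floor at the 40th percentile, at the 60th percentile and absent; 151 were over 2-fold higher, or 1287 without a floor. No paired analysis was possible because each genotype had 1 array. Signals near background, such as those of Cd200r1, Dok2 and Syk, limit what could be compared.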

Other observations

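Of 8 other genes measured that protect cells from attack or engulfment, 1 was over 2-fold higher in CD47 KO white matter, against 1.21% of all genes. Of the 8, 7 were above 0, as were 46.8% of all genes, and their median log2 ratio was 0.33. Cd24a, which encodes a surface protein known in humans as another "don't eat me" signal, was the one over 2-fold, with a signal of 7033 in CD47 KO and 3239 in WT (log2 ratio 1.12), and its other probe sets had log2 ratios of 1.10 and 0.76. The class I genes H2-D1 and H2-K1 had log2 ratios of 0.85 and 0.62 by probe sets that can share sequence with related genes. Cd55, a regulator of complement on cell surfaces, was on the other side of 0, with 643 in CD47 KO and 891 in WT (log2 ratio -0.47).

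None of the 6 genes measured that process fractalkine or transmit its signal was over 2-fold higher, against 1.21% of all genes, and their median log2 ratio was 0.07. Ctss, which encodes cathepsin S, a protease able to release soluble fractalkine, gave 26462 in CD47 KO and 15932 in WT (log2 ratio 0.73). The sheddase gene Adam17 had log2 ratios of 0.40, 0.51 and 0.20 over its 3 probe sets. Adam10, the other sheddase, had a log2 ratio of 0.01 and the G protein gene Gnai3 of 0.07, or -0.44 by its dimmer probe set.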
